A study of Mus musculus with 23 samples.

Results

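The transcripts described here are 31 genes of blood vessel walls, 18 of them known in endothelial cells and 13 in mural cells, the pericytes and smooth muscle cells that wrap the endothelium. They were chosen by name as a measure of vascular cells carried through a macrophage sort, and all 31 were found by gene name in the deposited count table of 54532 genes. Sequenced were Ly6G-, CD11b+ cells taken with magnetic beads from hearts of C57BL/6 mice and labelled cardiac macrophages. The S7fl/fl mice carried a floxed Smad7 gene and served as littermate controls. The MyS7KO mice carried the same floxed gene plus LyzM-Cre, a recombinase driven by the promoter of a lysozyme gene of myeloid cells. Hearts were taken uninjured (baseline), or at day 3 or day 7 after permanent ligation of the left anterior descending coronary artery, which causes an infarct that is not reperfused. There were 3 libraries of each genotype at baseline, 5 of each at day 3, and 3 S7fl/fl and 4 MyS7KO libraries at day 7, 23 in all. The labels give neither age nor whether each library came from 1 heart, so p-values here measure the spread between these samples, which may be technical.

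Endothelial cells line every vessel and are joined by VE-cadherin and claudin-5, and they sense vascular endothelial growth factor and angiopoietins through receptor tyrosine kinases. Pericytes lie against capillaries and are recruited by platelet-derived growth factor, while smooth muscle cells of arterioles and arteries hold a contractile apparatus of smooth muscle actin and myosin. The heart is rich in capillaries, and permanent occlusion of a coronary artery is known to cause loss of vessels within the infarct and later growth of vessels at its border.

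Total counts per library ran from 15479402 to 23884938. Macrophage genes were abundant at all times, with group means of 1389.6 to 2892 FPKM (fragments scaled by transcript length and library size) for C1qa and 248 to 514 FPKM for Csf1r, and Adgre1 was at 193 FPKM or more in every library. Smad7 was lower in MyS7KO at each time, with no overlap of the groups: 19.7 to 48.7 against 53.1 to 61.2 CPM (counts scaled to library size) at baseline, 10.5 to 19.9 against 30.4 to 42.0 CPM at day 3, and 16.0 to 33.4 against 57.4 to 70.2 CPM at day 7. At day 7 all 4 MyS7KO libraries held more Xist than Y-linked reads and all 3 S7fl/fl libraries the reverse, so sex and genotype cannot be told apart there. Libraries with more Xist were 2 of 3 in S7fl/fl and 1 of 3 in MyS7KO at baseline, and 2 of 5 and 3 of 5 at day 3. The mix of sexes thus also differed between times within a genotype, and comparisons over time were not adjusted for it. The deposited FPKM values were used to compare genes with each other, and CPM, scaled between libraries by the trimmed mean of M-values, to compare libraries.

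Vascular transcripts made up a small share of these libraries, and a smaller one after infarction. The 18 endothelial members together took 0.462% of counts in the S7fl/fl baseline libraries (0.404 to 0.526%, n = 3) and 0.411% in the MyS7KO ones (0.246 to 0.533%, n = 3). By day 3 their share was 0.0915% in S7fl/fl (0.0507 to 0.133%, n = 5) and 0.104% in MyS7KO (0.0731 to 0.135%, n = 5). By day 7 it was 0.0603% in S7fl/fl (0.0395 to 0.0902%, n = 3) and 0.123% in MyS7KO (0.0337 to 0.231%, n = 4). In these shares the baseline libraries all lay above every library taken after infarction. In scaled CPM the highest day 7 MyS7KO library, replicate 4 at 2274 CPM, stood just above the lowest baseline library at 2229 CPM. The day 7 MyS7KO libraries differed by 6.35 fold from lowest to highest, the widest fold of the 6 groups. In SD the MyS7KO baseline group was widest, at 1298 CPM beside 791 CPM in MyS7KO at day 7. Of the endothelial members 7 were listed as shared with blood cells, macrophages or red cells. Without these 7, the other 11 took 0.216% of counts at S7fl/fl baseline (0.188 to 0.246%) and 0.0404% at day 3 (0.0223 to 0.0608%). Tek, which some macrophages are also known to carry, was not among the 7 and stayed in this sum. The 13 mural members took 0.208 and 0.182% of counts at baseline in S7fl/fl and MyS7KO, 0.0254 and 0.029% at day 3, and 0.0186 and 0.0408% at day 7. In RNA of a sorted bulk population, fewer cells of a type and less RNA per cell cannot be told apart.

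**Figure D1:**
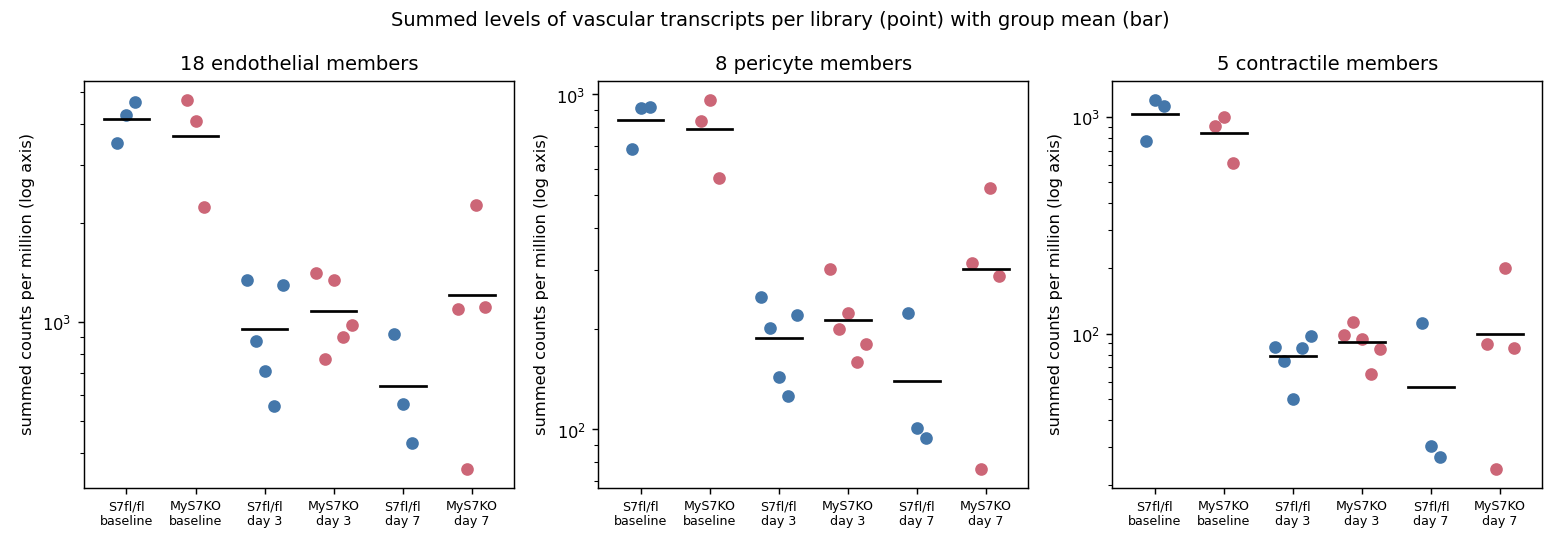
Summed CPM on a log axis for the 18 endothelial, the 8 pericyte and the 5 contractile members, 1 point per library and a bar at the group mean, S7fl/fl in blue and MyS7KO in red. Contractile members run from 616 CPM or more in each baseline library to 201 CPM or less in each later one, and the day 7 MyS7KO libraries span 23.6 to 201 CPM.

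A gene was called changed at an adjusted p under 0.05 in edgeR's quasi-likelihood test, Benjamini-Hochberg adjusted over the 16545 genes tested. All 31 members passed the low-count filter, which was set over the 6 groups together. In S7fl/fl at day 3, 31 of 31 members fell below baseline, where 34.1% of all genes tested were called lower and 64% either way. The groups did not overlap for any of the 31, as was so for 31.7% of genes tested in the lower direction. The median log2 change was -2.20 over the endothelial members, -2.27 over the 8 pericyte members and -3.30 over the 5 contractile members, beside -0.06 over all genes tested. At day 7 in S7fl/fl, 31 of 31 were again lower than baseline, where 25.4% of all genes were called lower, and 31 did not overlap, where 29.3% of genes were lower without overlap. The medians were -2.61, -2.82 and -3.77 in the same order, beside -0.02 over all genes.

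In MyS7KO at day 3, 30 of 31 members fell (35.2% of all genes called lower), and Mcam did not pass the test. The medians were -1.68 for endothelial, -2.02 for pericyte and -2.74 for contractile members, beside -0.10 over all genes. At day 7 in MyS7KO, 25 of 31 members were lower than baseline (21.8% of all genes called lower), 17 of 18 endothelial and 8 of 13 mural. The 6 that did not pass were Cldn5, Pdgfrb, Cspg4, Kcnj8, Abcc9 and Mcam, with adjusted p from 0.0502 (Cspg4) to 0.142 (Pdgfrb). This count depended on the model: 11 members passed when only the 2 groups entered the fit and 31 with limma-voom. The day 3 and day 7 comparisons of a genotype share their baseline libraries, so their counts are not independent of each other.

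**Figure D2:**
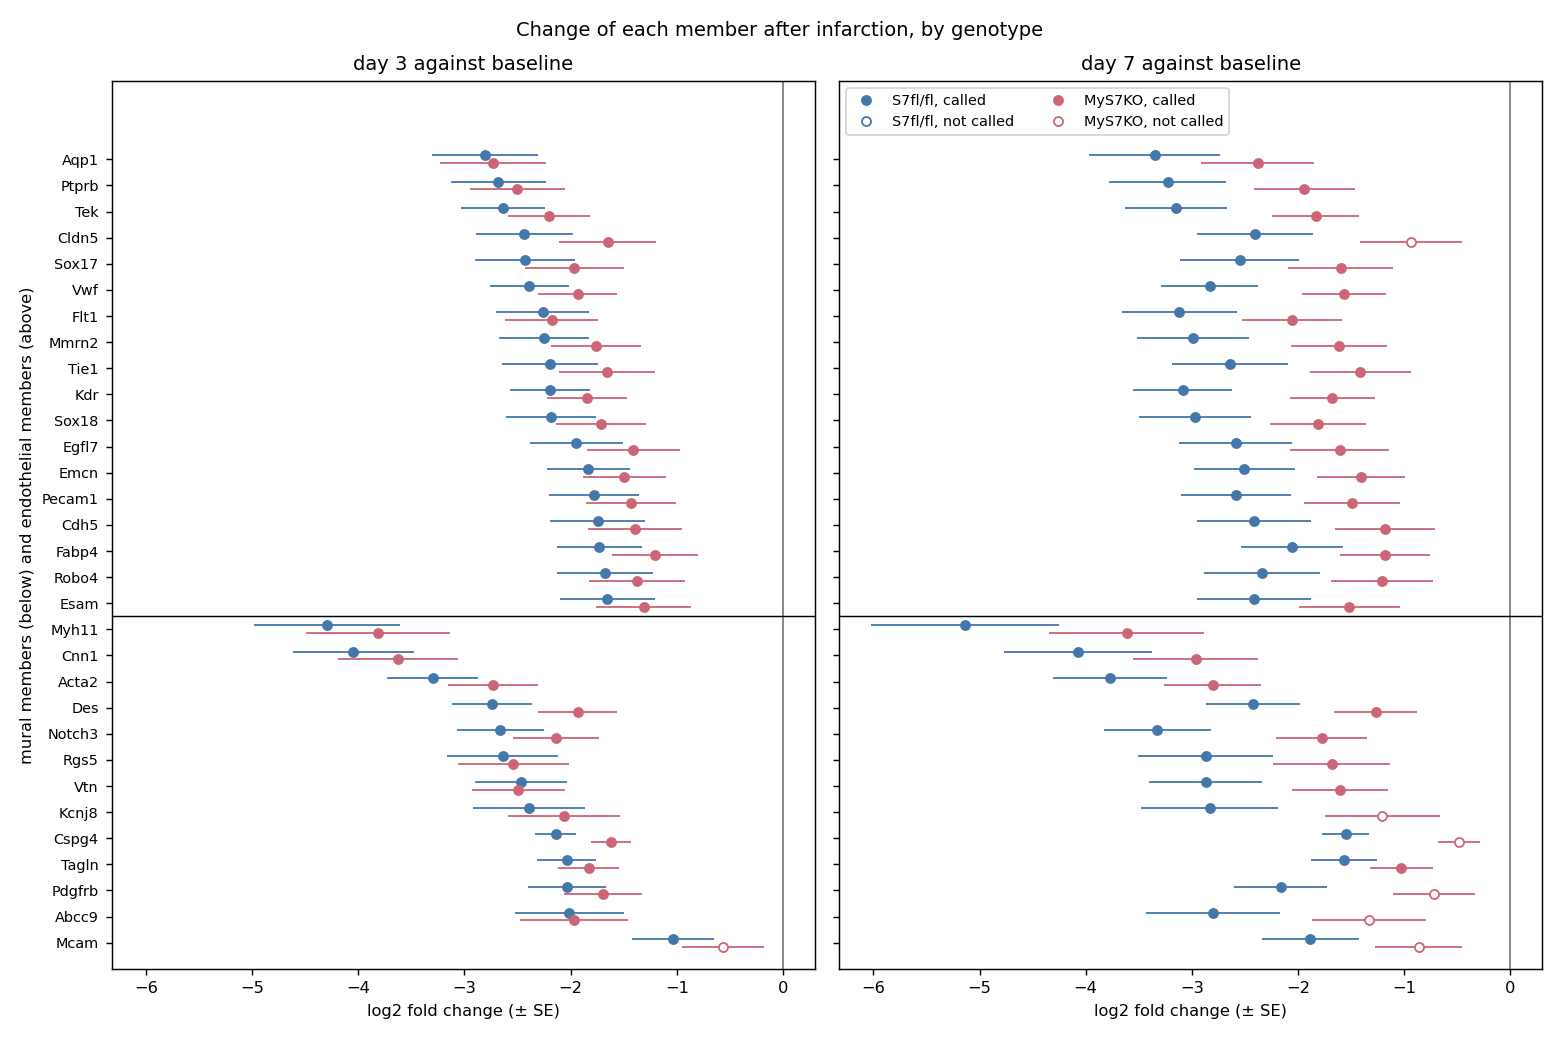
Log2 fold change against baseline (point) with its standard error (line) for each member at day 3 and day 7, S7fl/fl in blue and MyS7KO in red, with open points where the adjusted p was not under 0.05. Every point lies left of 0, the furthest are Myh11 and Cnn1, and at day 7 all 6 open points are MyS7KO.

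Baseline levels per length spread widely among members, over the 6 baseline libraries of both genotypes. Acta2 was highest at 207 ± 57.0 FPKM (SD, n = 6), above 99.7% of the genes in the table, followed by Aqp1 at 179 ± 40.8, Fabp4 at 126 ± 26.6, Rgs5 at 94.2 ± 15.7, Cdh5 at 81.4 ± 20.1, Myh11 at 66.1 ± 13.9 and Pecam1 at 60.1 ± 15.4 FPKM. Tagln was lowest at 1.10 ± 0.273 FPKM, below Cspg4 at 2.46 ± 0.615 FPKM. The ranges of neighbours in this order overlapped throughout, so the ranges alone do not rank them. Within each of the 6 libraries Rgs5 nonetheless stood above Cdh5, at an FPKM ratio of 1.03 to 1.60. Tagln and Acta2 are both known as abundant in smooth muscle, yet their baseline means stood far apart. In the gene annotation, 67.9% of the exon bases of Tagln (chr9:45929619-45936058, minus strand) are shared with exons of Pcsk7 and Gm48529 on the plus strand. Strandedness of the libraries is not given in the sources used here, so the Tagln counts are uncertain. For 24 members no exon base was shared with another gene, and for the other 6 it was 16.8% or less.

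The sequence before the start sites is shown for 2 endothelial and 2 mural members. The windows are 250 bases upstream of the RefSeq start site (GRCm38.p6), 5′ to 3′ on the gene's own strand, with each AGGAAG or its reverse complement in capitals. AGGAAG holds the GGAA core bound by ETS factors, a family known to act at endothelial genes, and it shares this core with the longer site CCGGAAGT. Flt1 lies at chr5:147726012-147726261 on the minus strand and Aqp1 at chr6:55336049-55336298, Rgs5 at chr1:169655251-169655500 and Des at chr1:75360042-75360291 on the plus strand.
Flt1: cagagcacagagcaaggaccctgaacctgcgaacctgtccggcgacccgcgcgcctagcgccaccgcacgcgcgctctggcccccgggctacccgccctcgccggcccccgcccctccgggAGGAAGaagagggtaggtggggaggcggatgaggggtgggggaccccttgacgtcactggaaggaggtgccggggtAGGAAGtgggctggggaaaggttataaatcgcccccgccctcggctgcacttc
Aqp1: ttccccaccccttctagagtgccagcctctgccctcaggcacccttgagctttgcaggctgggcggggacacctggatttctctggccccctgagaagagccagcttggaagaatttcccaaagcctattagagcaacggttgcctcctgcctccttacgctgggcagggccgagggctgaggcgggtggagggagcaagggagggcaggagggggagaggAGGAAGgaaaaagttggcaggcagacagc
Rgs5: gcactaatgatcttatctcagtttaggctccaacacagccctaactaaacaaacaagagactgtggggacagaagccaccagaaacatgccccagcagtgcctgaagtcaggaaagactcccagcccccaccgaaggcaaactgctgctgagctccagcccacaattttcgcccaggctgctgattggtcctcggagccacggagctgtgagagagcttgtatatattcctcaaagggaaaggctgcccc
Des: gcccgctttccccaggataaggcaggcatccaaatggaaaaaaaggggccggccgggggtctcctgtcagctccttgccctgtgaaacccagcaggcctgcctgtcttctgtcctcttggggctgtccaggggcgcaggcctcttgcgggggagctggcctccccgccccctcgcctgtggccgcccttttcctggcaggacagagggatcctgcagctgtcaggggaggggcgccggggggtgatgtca
A window was at hand for 19 members. AGGAAG, searched on both strands, stood in the windows of 6 of the 9 endothelial genes (Aqp1, Egfl7, Emcn, Flt1, Robo4 and Tie1) and of 0 of the 10 mural genes, beside 32.3% of the 27025 genes in the whole table. The 2 endothelial windows shown are thus among those with AGGAAG, while those of Cldn5, Kdr and Tek held none. The longer site stood in none of the 19, beside 3.23% of genes. The CArG box of serum response factor, searched strictly as CC, 6 letters A or T, then GG, stood in none, beside 1.62%. Looser forms were not searched, and the Acta2 window holds ccctatatgg and ccttgtttgg, which each differ from the strict form by a single base. These matches describe letters in a window and are not binding sites, and the absence of a match says nothing of the factor.

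In the values per library that follow, CPM are listed in the order of replicate numbers, which are 2, 3 and 4 for S7fl/fl and 1, 3, 4 and 5 for MyS7KO at day 7. Changes are log2 fold changes ± SE against the baseline of the same genotype. In S7fl/fl the baseline libraries lay above all later ones for each of the 31 members. In MyS7KO this was so for 30 members at day 3 and 16 at day 7, where 31.8% and 22.5% of all genes were lower without overlap.

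The junction and adhesion molecules come first. Cdh5 (chr8:104101625-104144511, build GRCm38, plus strand) encodes VE-cadherin, the cadherin of endothelial junctions. Cdh5 had 296, 366 and 429 CPM in the S7fl/fl baseline libraries and 410.2, 370.2 and 195 CPM in the MyS7KO ones. At day 3 Cdh5 had 158, 98.03, 91.1, 55.9 and 138 CPM in S7fl/fl and 171, 92.2, 152, 98.5 and 105 CPM in MyS7KO. At day 7 Cdh5 had 101, 55.8 and 48.01 CPM in S7fl/fl and 132, 35.3, 274 and 132 CPM in MyS7KO. All baseline libraries were above all day 3 libraries, and MyS7KO day 7 replicate 4 lay within the MyS7KO baseline range. The S7fl/fl change was -1.75 ± 0.44, adjusted p = 0.00210 at day 3 and -2.41 ± 0.53, adjusted p = 0.00107 at day 7. In MyS7KO it was -1.39 ± 0.44, adjusted p = 0.0100 at day 3 and -1.18 ± 0.47, adjusted p = 0.0492 at day 7. Among other fits, the last call was lost with no low-count filter (adjusted p = 0.129), with only the groups compared, and without MyS7KO baseline replicate 1 or 2 or day 7 replicate 1, 3 or 5. The day 3 call in MyS7KO was lost without baseline replicate 1 (adjusted p = 0.0582).

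Pecam1, the adhesion molecule CD31 of endothelium, platelets and some leukocytes, followed the same course. Pecam1 read 341, 427 and 447 CPM at S7fl/fl baseline and 477, 361 and 209 CPM at MyS7KO baseline. By day 3 Pecam1 read 155, 111, 86.7, 75.8 and 162 CPM in S7fl/fl and 182, 106, 147, 101 and 109 CPM in MyS7KO. By day 7 Pecam1 read 99.7, 56.7 and 46.1 CPM in S7fl/fl and 114, 31.2, 228 and 121 CPM in MyS7KO. MyS7KO day 7 replicate 4 was again inside its baseline range, and replicate 3 was the lowest of all 23 libraries. Pecam1 changed by -1.78 ± 0.42, adjusted p = 0.00125 at day 3 in S7fl/fl and by -1.43 ± 0.42, adjusted p = 0.00629 in MyS7KO. Esam is an immunoglobulin-type molecule of endothelial junctions. Esam stood at 100.3, 129 and 128 CPM in uninjured S7fl/fl hearts and at 134, 125 and 68.4 CPM in MyS7KO hearts. On day 3 Esam stood at 54.7, 39.6, 26.2, 17.96 and 49.8 CPM in S7fl/fl and at 57.6, 29.1, 58.6, 37.4 and 36.6 CPM in MyS7KO. On day 7 Esam stood at 33.6, 20.1 and 13.1 CPM in S7fl/fl and at 38.8, 9.58, 69.6 and 34.2 CPM in MyS7KO. Esam kept 31.7% of its S7fl/fl baseline mean at day 3, the most of the endothelial members, and its day 7 groups overlapped.

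Cldn5, the claudin that seals endothelial tight junctions, was the endothelial member that did not pass in MyS7KO at day 7. Cldn5 had 55.6, 101 and 89.2 CPM in the S7fl/fl baseline libraries and 70.5, 59.5 and 31.7 CPM in the MyS7KO ones. At day 3 Cldn5 had 23.7, 11.5, 14.6, 7.93 and 17.7 CPM in S7fl/fl and 24.7, 15.4, 20.2, 11.96 and 13.4 CPM in MyS7KO. At day 7 Cldn5 had 19.1, 17.6 and 9.58 CPM in S7fl/fl and 26.7, 6.13, 52.3 and 27.4 CPM in MyS7KO. At day 7 replicate 4 of MyS7KO reached the MyS7KO baseline range while replicate 3 was the lowest of the day 7 libraries. In S7fl/fl the change was -2.44 ± 0.46, adjusted p = 0.000142 at day 3 and -2.41 ± 0.55, adjusted p = 0.00130 at day 7. In MyS7KO it was -1.65 ± 0.46, adjusted p = 0.00388 at day 3, and -0.94 ± 0.48, adjusted p = 0.123 at day 7.

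Of the 6 receptors and receptor partners, Ptprb and Tek kept the smallest share of their baseline mean at day 3 and Robo4 the largest. Kdr encodes the main signalling receptor for vascular endothelial growth factor. Kdr read 321, 379 and 455 CPM at S7fl/fl baseline and 444, 353 and 191 CPM at MyS7KO baseline. By day 3 Kdr read 124, 75.5, 62.9, 58.6 and 99.5 CPM in S7fl/fl and 121, 71.7, 99.4, 82.2 and 83.4 CPM in MyS7KO. By day 7 Kdr read 61.3, 33.9 and 40.9 CPM in S7fl/fl and 106, 34.9, 185 and 85.6 CPM in MyS7KO. Every later library was below every baseline one in both genotypes. The change of Kdr was -2.19 ± 0.38, adjusted p = 5.64e-05 at day 3 in S7fl/fl and -1.85 ± 0.38, adjusted p = 0.000294 in MyS7KO. Flt1 encodes another receptor of the same ligand, which also acts as a decoy and is known in monocytes. Flt1 stood at 279.6, 327 and 329.8 CPM in uninjured S7fl/fl hearts and at 402, 356 and 149 CPM in MyS7KO hearts. On day 3 Flt1 stood at 94.5, 57.04, 41.4, 43.7 and 87.7 CPM in S7fl/fl and at 92.2, 45.7, 81.7, 59.9 and 55.1 CPM in MyS7KO. On day 7 Flt1 stood at 47.9, 34.3 and 25.6 CPM in S7fl/fl and at 61.97, 20.4, 143 and 65.3 CPM in MyS7KO. Flt1 showed the same order of libraries, with MyS7KO replicate 4 highest and replicate 3 lowest at day 7.

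Tek encodes Tie2, the angiopoietin receptor, which some macrophages are also known to carry. Tek had 106, 124 and 138 CPM in the S7fl/fl baseline libraries and 139, 111 and 66.6 CPM in the MyS7KO ones. At day 3 Tek had 24.5, 17.6, 14.8, 13.4 and 28.3 CPM in S7fl/fl and 30.7, 14.8, 27.2, 21.6 and 20.1 CPM in MyS7KO. At day 7 Tek had 19.3, 11.5 and 10.6 CPM in S7fl/fl and 27.5, 9.90, 57.4 and 23.3 CPM in MyS7KO. The later libraries were all below the baseline ones, and the day 7 means were 11.2 and 28.0% of baseline in S7fl/fl and MyS7KO. Tek changed by -2.64 ± 0.39, adjusted p = 1.15e-05 at day 3 in S7fl/fl and by -2.21 ± 0.39, adjusted p = 7.14e-05 in MyS7KO. Tie1 is the partner of Tie2. Tie1 read 184, 252 and 252 CPM at S7fl/fl baseline and 246, 217 and 114 CPM at MyS7KO baseline. By day 3 Tie1 read 77.4, 37.4, 38.1, 28.9 and 67.3 CPM in S7fl/fl and 71.2, 45.1, 80.5, 52.3 and 55.99 CPM in MyS7KO. By day 7 Tie1 read 55.1, 36.001 and 19.1 CPM in S7fl/fl and 63.4, 19.997, 142 and 63.1 CPM in MyS7KO. One MyS7KO library, replicate 4, overlapped the MyS7KO baseline at day 7.

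Ptprb is the endothelial phosphatase that restrains Tie2 and VE-cadherin signalling. Ptprb stood at 388, 393 and 452 CPM in uninjured S7fl/fl hearts and at 519, 470.1 and 203 CPM in MyS7KO hearts. On day 3 Ptprb stood at 90.7, 59.6, 49.4, 31.9 and 88.3 CPM in S7fl/fl and at 90.8, 44.3, 91.6, 54.4 and 68.99 CPM in MyS7KO. On day 7 Ptprb stood at 64.2, 39.9 and 27.3 CPM in S7fl/fl and at 103, 30.9, 192 and 88.01 CPM in MyS7KO. The change of Ptprb at day 3 was -2.68 ± 0.45, adjusted p = 4.22e-05 in S7fl/fl and -2.50 ± 0.45, adjusted p = 8.01e-05 in MyS7KO, next to Aqp1 the lowest of the endothelial members in both genotypes. Robo4, a roundabout receptor that stabilises vessels, was at the other end. Robo4 had 59.8, 83.4 and 78.5 CPM in the S7fl/fl baseline libraries and 90.5, 81.1 and 38.95 CPM in the MyS7KO ones. At day 3 Robo4 had 36.6, 20.3, 16.8, 12.3 and 29.3 CPM in S7fl/fl and 33.4, 19.6, 38.4, 23.05 and 20.7 CPM in MyS7KO. At day 7 Robo4 had 21.6, 12.02 and 10.1 CPM in S7fl/fl and 31.6, 6.71, 53.1 and 30.04 CPM in MyS7KO. Robo4 kept 31.2 and 38.5% of its baseline means at day 3 in S7fl/fl and MyS7KO.

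Among secreted and surface glycoproteins, Vwf encodes von Willebrand factor, which endothelial cells store for platelet capture. Vwf read 171, 234 and 135 CPM at S7fl/fl baseline and 219, 171 and 54.4 CPM at MyS7KO baseline. By day 3 Vwf read 47.4, 28.04, 24.98, 25.3 and 45.8 CPM in S7fl/fl and 45.6, 31.1, 45.6, 34.3 and 37.5 CPM in MyS7KO. By day 7 Vwf read 32.3, 20.9 and 22.6 CPM in S7fl/fl and 52.05, 25.7, 81.3 and 41.2 CPM in MyS7KO. Its lowest baseline library, MyS7KO replicate 3, stood below MyS7KO day 7 replicate 4. Emcn encodes endomucin of capillaries and veins. Emcn stood at 46.5, 52.5 and 63.4 CPM in uninjured S7fl/fl hearts and at 51.7, 49.4 and 31.97 CPM in MyS7KO hearts. On day 3 Emcn stood at 21.7, 16.8, 9.87, 9.20 and 18.1 CPM in S7fl/fl and at 20.4, 11.4, 17.3, 14.4 and 15.2 CPM in MyS7KO. On day 7 Emcn stood at 15.5, 6.90 and 6.02 CPM in S7fl/fl and at 14.5, 5.30, 29.8 and 17.2 CPM in MyS7KO. Emcn did not overlap between baseline and later libraries in either genotype. It changed by -1.83 ± 0.39, adjusted p = 0.000466 at day 3 in S7fl/fl and -1.50 ± 0.39, adjusted p = 0.00257 in MyS7KO.

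Mmrn2 encodes multimerin 2 of the endothelial matrix. Mmrn2 had 105, 123 and 126 CPM in the S7fl/fl baseline libraries and 135, 129 and 59.9 CPM in the MyS7KO ones. At day 3 Mmrn2 had 29.8, 23.7, 19.9, 15.1 and 35.03 CPM in S7fl/fl and 41.9, 23.4, 38.1, 26.3 and 29.4 CPM in MyS7KO. At day 7 Mmrn2 had 23.7, 12.7 and 8.02 CPM in S7fl/fl and 33.1, 9.84, 66.3 and 31.2 CPM in MyS7KO. Only replicate 4 of the MyS7KO day 7 libraries came up to the baseline range. Egfl7 is a secreted protein of the endothelial matrix whose gene holds the microRNA Mir126a. Egfl7 read 75.8, 100.2 and 107 CPM at S7fl/fl baseline and 90.96, 80.8 and 50.997 CPM at MyS7KO baseline. By day 3 Egfl7 read 32.4, 22.6, 16.7, 16.9 and 33.5 CPM in S7fl/fl and 34.5, 22.5, 36.6, 23.8 and 22.2 CPM in MyS7KO. By day 7 Egfl7 read 26.1, 13.2 and 7.80 CPM in S7fl/fl and 21.99, 5.37, 44.6 and 25.2 CPM in MyS7KO. Vwf, Emcn, Mmrn2 and Egfl7 were called lower in both genotypes at both times.

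The transcription factors Sox17 and Sox18 act in arterial and in lymphatic endothelium respectively, and Sox18 also in blood vessels. Sox17 stood at 35.5, 50.7 and 49.1 CPM in uninjured S7fl/fl hearts and at 48.6, 46.1 and 25.1 CPM in MyS7KO hearts. On day 3 Sox17 stood at 13.4, 5.24, 6.38, 5.46 and 11.1 CPM in S7fl/fl and at 13.2, 6.66, 14.4, 9.34 and 7.55 CPM in MyS7KO. On day 7 Sox17 stood at 10.8, 8.42 and 3.90 CPM in S7fl/fl and at 12.8, 2.62, 24.4 and 12.7 CPM in MyS7KO. Sox17 libraries did not overlap between baseline and later times. Sox18 had 36.2, 61.2 and 42.4 CPM in the S7fl/fl baseline libraries and 53.2, 49.2 and 20.3 CPM in the MyS7KO ones. At day 3 Sox18 had 15.3, 9.13, 7.65, 5.77 and 13.03 CPM in S7fl/fl and 17.2, 10.9, 14.2, 8.16 and 11.7 CPM in MyS7KO. At day 7 Sox18 had 9.61, 4.76 and 3.40 CPM in S7fl/fl and 12.5, 4.22, 20.7 and 9.06 CPM in MyS7KO. For Sox18, MyS7KO day 7 replicate 4 lay just above the lowest MyS7KO baseline library. The S7fl/fl changes at day 3 were -2.43 ± 0.47, adjusted p = 0.000185 for Sox17 and -2.19 ± 0.43, adjusted p = 0.000207 for Sox18.

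The transport proteins Fabp4 and Aqp1 were the most abundant endothelial members per length at baseline and lay near opposite ends of the loss. Fabp4 binds fatty acids in capillary endothelium and is also known in macrophages. Fabp4 read 505, 623 and 747 CPM at S7fl/fl baseline and 636, 488 and 405 CPM at MyS7KO baseline. By day 3 Fabp4 read 249, 173, 139, 101 and 279 CPM in S7fl/fl and 249, 144, 288, 193 and 229.6 CPM in MyS7KO. By day 7 Fabp4 read 212, 136 and 102 CPM in S7fl/fl and 186, 71.04, 411 and 232 CPM in MyS7KO. The day 3 means of Fabp4 were 30.1 and 43.3% of baseline in S7fl/fl and MyS7KO. Aqp1 (chr6:55336432-55348555, plus strand), whose promoter window is shown above, is the water channel of continuous capillaries, shared with red cells. Aqp1 stood at 395, 427 and 581 CPM in uninjured S7fl/fl hearts and at 570.0, 548 and 314 CPM in MyS7KO hearts. On day 3 Aqp1 stood at 93.04, 69.9, 45.2, 30.8 and 95.1 CPM in S7fl/fl and at 112, 41.1, 94.7, 50.7 and 60.96 CPM in MyS7KO. On day 7 Aqp1 stood at 69.04, 42.3 and 26.2 CPM in S7fl/fl and at 61.4, 28.9, 199 and 77.4 CPM in MyS7KO. The day 3 means of Aqp1 were 14.3 and 15.1% of baseline, the lowest among endothelial members, with changes of -2.81 ± 0.50, adjusted p = 8.04e-05 in S7fl/fl and -2.73 ± 0.50, adjusted p = 0.000100 in MyS7KO. Erythroid markers were lower at day 3 too, their sum being 21.4 to 54.7 CPM over the baseline libraries and 1.29 to 8.65 CPM over those of day 3. At day 7 it was 2.78, 5.25 and 199.7 CPM in S7fl/fl, highest in replicate 2, and 1.72 to 15.6 CPM in MyS7KO, while the mean of Aqp1 was 9.8% of baseline in S7fl/fl. Their part in the Aqp1 result was not tested.

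Of the mural members of pericytes, Rgs5 encodes a regulator of G protein signalling that marks these cells. Rgs5 had 348, 436 and 496 CPM in the S7fl/fl baseline libraries and 457, 513 and 337 CPM in the MyS7KO ones. At day 3 Rgs5 had 88.5, 74.8, 51.6, 44.8 and 81.9 CPM in S7fl/fl and 98.3, 75.5, 78.2, 53.8 and 68.04 CPM in MyS7KO. At day 7 Rgs5 had 103, 36.4 and 35.3 CPM in S7fl/fl and 132, 14.6, 264 and 133 CPM in MyS7KO. The day 7 groups overlapped, with 3 of 4 MyS7KO libraries above all 3 S7fl/fl ones and replicate 3 below them. Rgs5 changed by -2.64 ± 0.52, adjusted p = 0.000241 at day 3 in S7fl/fl and -2.54 ± 0.52, adjusted p = 0.000331 in MyS7KO. Pdgfrb is the receptor through which platelet-derived growth factor recruits pericytes, and fibroblasts share it. Pdgfrb read 52.04, 75.97 and 64.9 CPM at S7fl/fl baseline and 54.7, 68.4 and 34.5 CPM at MyS7KO baseline. By day 3 Pdgfrb read 22.04, 20.5, 11.3, 10.7 and 13.7 CPM in S7fl/fl and 24.4, 18.1, 14.4, 12.8 and 10.8 CPM in MyS7KO. By day 7 Pdgfrb read 22.9, 9.82 and 10.2 CPM in S7fl/fl and 46.1, 13.7, 39.3 and 28.6 CPM in MyS7KO. At day 7 its MyS7KO mean was 60.7% of baseline, beside 22.3% in S7fl/fl. In MyS7KO the change from baseline was -1.70 ± 0.37, adjusted p = 0.000527 at day 3 and -0.72 ± 0.39, adjusted p = 0.142 at day 7, the latter not passing.

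Notch3 is the Notch receptor of mural cells. Notch3 stood at 104, 156 and 115 CPM in uninjured S7fl/fl hearts and at 113, 138 and 57.3 CPM in MyS7KO hearts. On day 3 Notch3 stood at 24.2, 17.03, 16.5, 17.01 and 23.8 CPM in S7fl/fl and at 28.2, 26.6, 22.6, 19.1 and 20.1 CPM in MyS7KO. On day 7 Notch3 stood at 21.8, 7.93 and 7.63 CPM in S7fl/fl and at 35.95, 8.18, 49.6 and 25.7 CPM in MyS7KO. It kept the smallest share of baseline of the pericyte members in S7fl/fl, 15.7% at day 3 and 9.95% at day 7. The S7fl/fl changes were -2.66 ± 0.41, adjusted p = 1.65e-05 at day 3 and -3.32 ± 0.51, adjusted p = 3.21e-05 at day 7. Vtn encodes vitronectin, a matrix protein known from pericytes. Vtn had 5.99, 11.8 and 12.95 CPM in the S7fl/fl baseline libraries and 9.08, 13.03 and 7.38 CPM in the MyS7KO ones. At day 3 Vtn had 1.88, 2.14, 1.28, 1.14 and 2.74 CPM in S7fl/fl and 2.83, 1.51, 1.67, 1.56 and 1.08 CPM in MyS7KO. At day 7 Vtn had 2.12, 1.04 and 1.003 CPM in S7fl/fl and 2.52, 0.767, 6.81 and 2.77 CPM in MyS7KO. The MyS7KO day 7 libraries of Vtn all lay below its baseline range.

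Kcnj8 (chr6:142564837-142571614) and Abcc9 (chr6:142587862-142702315) lie side by side on the minus strand and encode the pore and the sulfonylurea receptor of a potassium channel of pericytes and smooth muscle. Kcnj8 read 9.21, 10.9 and 15.3 CPM at S7fl/fl baseline and 9.39, 12.2 and 7.93 CPM at MyS7KO baseline. By day 3 Kcnj8 read 3.31, 3.82, 1.28, 1.65 and 1.14 CPM in S7fl/fl and 4.92, 2.22, 1.85, 1.18 and 1.44 CPM in MyS7KO. By day 7 Kcnj8 read 2.50, 0.976 and 1.45 CPM in S7fl/fl and 3.81, 0.639, 8.15 and 4.38 CPM in MyS7KO. At day 7 the MyS7KO libraries spanned a wide range from replicate 3 to replicate 4. Abcc9 stood at 33.99, 32.4 and 44.8 CPM in uninjured S7fl/fl hearts and at 30.2, 50.4 and 29.3 CPM in MyS7KO hearts. On day 3 Abcc9 stood at 12.4, 11.6, 6.98, 5.14 and 9.71 CPM in S7fl/fl and at 18.3, 6.70, 8.11, 5.23 and 8.27 CPM in MyS7KO. On day 7 Abcc9 stood at 8.85, 4.15 and 2.90 CPM in S7fl/fl and at 15.6, 2.17, 27.02 and 13.2 CPM in MyS7KO. Both genes were highest of their group in replicate 1 of the MyS7KO day 3 libraries. Both fell at day 3 in each genotype, with log2 changes of -2.39 and -2.06 for Kcnj8 and -2.01 and -1.97 for Abcc9 in S7fl/fl and MyS7KO.

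Mcam and Cspg4 departed from the other pericyte members. Mcam (chr9:44134469-44142727, plus strand), the adhesion molecule CD146, is shared by pericytes and endothelium. Mcam had 106, 150.2 and 134 CPM in the S7fl/fl baseline libraries and 133, 136 and 70.6 CPM in the MyS7KO ones. At day 3 Mcam had 87.6, 64.6, 47.4, 39.4 and 77.7 CPM in S7fl/fl and 116, 59.2, 87.7, 56.7 and 62.9 CPM in MyS7KO. At day 7 Mcam had 48.6, 31.1 and 25.8 CPM in S7fl/fl and 59.4, 20.5, 108 and 60.9 CPM in MyS7KO. At day 3 Mcam kept the largest share of its baseline mean of any member, 48.7% in S7fl/fl and 67.6% in MyS7KO, where 2 of 5 libraries were inside the baseline range. The S7fl/fl change was -1.04 ± 0.39, adjusted p = 0.0249, a call that was lost with no low-count filter and without baseline replicate 2 or 3 or day 3 replicate 3 or 4 (adjusted p = 0.0538 to 0.0848). The MyS7KO change was -0.56 ± 0.39, adjusted p = 0.209, and it passed with limma-voom only.

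Cspg4 (chr9:56865033-56899870, plus strand) is the proteoglycan NG2 of pericytes. Cspg4 read 26.8, 38.3 and 31.9 CPM at S7fl/fl baseline and 27.04, 35.6 and 17.4 CPM at MyS7KO baseline. By day 3 Cspg4 read 9.19, 6.09, 6.65, 5.90 and 8.63 CPM in S7fl/fl and 8.99, 9.90, 8.11, 8.72 and 7.49 CPM in MyS7KO. By day 7 Cspg4 read 13.2, 9.89 and 9.91 CPM in S7fl/fl and 18.7, 15.5, 23.1 and 18.8 CPM in MyS7KO. All day 7 libraries of a genotype were above all of its day 3 libraries, and 3 of the 4 MyS7KO ones were inside the baseline range. Its S7fl/fl change from baseline was -2.14 ± 0.19, adjusted p = 2.41e-09 at day 3 and -1.55 ± 0.22, adjusted p = 4.79e-06 at day 7. In MyS7KO it was -1.62 ± 0.19, adjusted p = 1.21e-07 and then -0.48 ± 0.20, adjusted p = 0.0502, with an adjusted p of 0.0451 under another scaling of the counts.

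Among contractile members, Myh11, Cnn1 and Acta2 kept the smallest shares of baseline of all 31 members at day 3 in S7fl/fl. Myh11 (chr16:14194535-14291372, minus strand) encodes the smooth muscle myosin heavy chain. Myh11 stood at 437, 597 and 586 CPM in uninjured S7fl/fl hearts and at 472, 605 and 336 CPM in MyS7KO hearts. On day 3 Myh11 stood at 30.3, 22.01, 15.8, 31.3 and 37.8 CPM in S7fl/fl and at 31.7, 41.5, 34.04, 22.4 and 37.3 CPM in MyS7KO. On day 7 Myh11 stood at 35.04, 6.10 and 4.68 CPM in S7fl/fl and at 35.3, 2.36, 87.5 and 28.5 CPM in MyS7KO. Even the highest later library, MyS7KO day 7 replicate 4, was far below the lowest baseline one. The S7fl/fl means at day 3 and day 7 were 5.09 and 2.83% of baseline, with changes of -4.29 ± 0.69, adjusted p = 3.09e-05 and -5.14 ± 0.89, adjusted p = 0.000123. In MyS7KO they were 7.09 and 8.16% of baseline, with changes of -3.82 ± 0.68, adjusted p = 8.48e-05 and -3.61 ± 0.73, adjusted p = 0.000675.

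Cnn1 (chr9:22099216-22109630, plus strand) encodes calponin of differentiated smooth muscle. Cnn1 had 14.2, 26.7 and 23.1 CPM in the S7fl/fl baseline libraries and 18.2, 17.2 and 13.5 CPM in the MyS7KO ones. At day 3 Cnn1 had 1.28, 0.647, 0.537, 1.71 and 2.17 CPM in S7fl/fl and 1.84, 1.51, 1.31, 0.747 and 1.08 CPM in MyS7KO. At day 7 Cnn1 had 2.93, 0.244 and 0.557 CPM in S7fl/fl and 1.40, 0.256, 4.14 and 2.47 CPM in MyS7KO. Later libraries held as few as 4 counts, so single values are imprecise, but none came near the baseline range. Cnn1 stood at 5.95% of baseline at day 3 in S7fl/fl and at 7.95% in MyS7KO, with changes of -4.05 ± 0.57, adjusted p = 5.34e-06 and -3.63 ± 0.57, adjusted p = 1.62e-05.

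Acta2 (chr19:34241090-34255336, minus strand) encodes smooth muscle actin, which myofibroblasts also make. Acta2 read 289.9, 516 and 464 CPM at S7fl/fl baseline and 382, 332 and 243 CPM at MyS7KO baseline. By day 3 Acta2 read 46.6, 45.1, 28.3, 46.3 and 48.6 CPM in S7fl/fl and 55.3, 59.2, 49.6, 35.7 and 39.4 CPM in MyS7KO. By day 7 Acta2 read 59.3, 17.2 and 16.3 CPM in S7fl/fl and 40.7, 15.2, 85.2 and 41.3 CPM in MyS7KO. All later libraries were below all baseline ones. The changes were -3.30 ± 0.43, adjusted p = 2.38e-06 at day 3 and -3.77 ± 0.53, adjusted p = 1.41e-05 at day 7 in S7fl/fl, and -2.74 ± 0.42, adjusted p = 1.7e-05 and -2.81 ± 0.46, adjusted p = 8.16e-05 in MyS7KO. Of 14 fibroblast markers, 6 rose and 6 fell at day 7 in S7fl/fl, where 25.4% of all genes were called lower. In MyS7KO 7 rose and 3 fell, where 21.8% of all genes were called lower. The median log2 change of these markers was -0.15 in S7fl/fl and 0.79 in MyS7KO. Without Fn1, the most abundant of them after infarction, their sum was 2206 to 2824 CPM at baseline and 1756 to 3979 CPM at day 7 in S7fl/fl, and 1322 to 2618 and 2247 to 5688 CPM in MyS7KO. Their part in the Acta2 result was not tested.

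Des, whose promoter window is shown above, encodes desmin of muscle intermediate filaments, in cardiomyocytes too. Des stood at 29.5, 61.04 and 41.04 CPM in uninjured S7fl/fl hearts and at 33.5, 39.5 and 21.7 CPM in MyS7KO hearts. On day 3 Des stood at 7.86, 6.41, 4.77, 5.71 and 7.83 CPM in S7fl/fl and at 9.19, 9.81, 9.36, 5.79 and 7.01 CPM in MyS7KO. On day 7 Des stood at 13.6, 6.16 and 4.68 CPM in S7fl/fl and at 11.3, 4.98, 23.005 and 12.9 CPM in MyS7KO. The MyS7KO day 7 replicate 4 library overlapped the MyS7KO baseline. The 13 cardiomyocyte markers summed to 105 to 139.7 CPM at S7fl/fl baseline and to 14.8 to 34.7 CPM at day 3, with 3 and 8 of them under 1 FPKM on average, and their part in the Des result was not tested. Tagln encodes an actin-binding protein of smooth muscle. Tagln had 2.15, 2.94 and 2.82 CPM in the S7fl/fl baseline libraries and 1.70, 2.07 and 1.59 CPM in the MyS7KO ones. At day 3 Tagln had 0.494, 0.647, 0.604, 0.761 and 0.686 CPM in S7fl/fl and 0.547, 0.532, 0.477, 0.498 and 0.420 CPM in MyS7KO. At day 7 Tagln had 1.25, 0.549 and 0.835 CPM in S7fl/fl and 0.841, 0.831, 1.28 and 0.554 CPM in MyS7KO. These values rest on 7 to 66 counts in a library, and MyS7KO replicates 3 and 4 of day 7 did not stand apart as they did in other members.

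**Figure D3:**
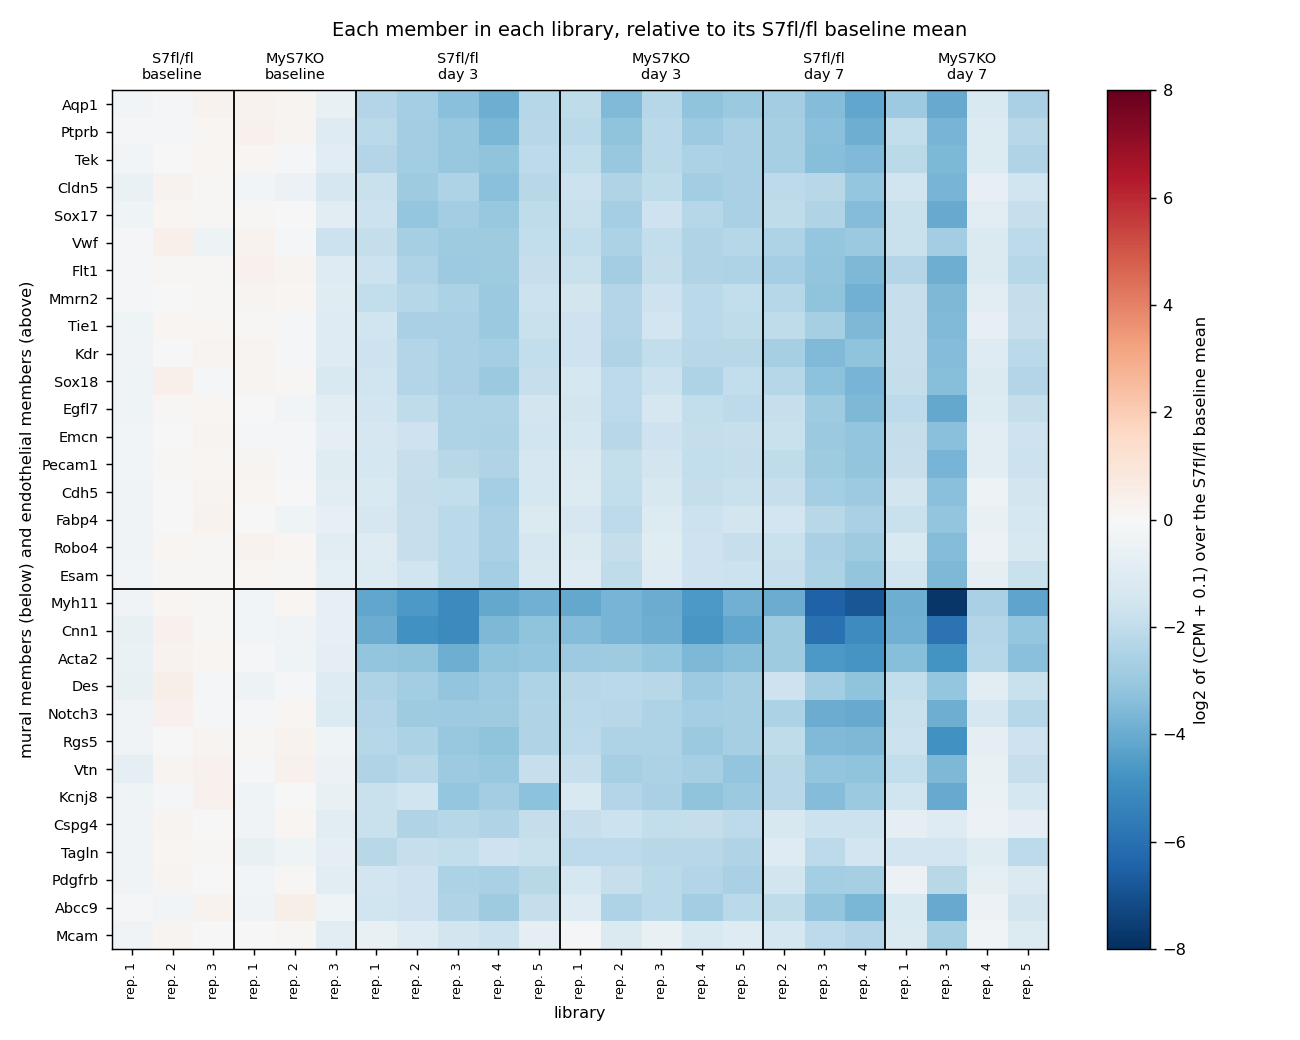
Each member (row) in each of the 23 libraries (column) as log2 of CPM + 0.1 over its mean in the S7fl/fl baseline libraries, blue below and red above that mean, with endothelial members above the line and mural members below it. Baseline columns are near white, later columns are blue, Myh11 and Cnn1 are darkest, and within MyS7KO day 7 the column of replicate 3 is dark and that of replicate 4 pale across nearly all rows.

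The proportions among vascular transcripts also differed between times. The ratio of summed contractile to summed endothelial CPM was 0.221 to 0.283 in S7fl/fl and 0.191 to 0.276 in MyS7KO at baseline. It was 0.0645 to 0.154 and 0.0700 to 0.145 at day 3, and 0.0537 to 0.122 and 0.0660 to 0.0884 at day 7. No library after infarction reached the lowest baseline ratio. The ratio of pericyte to endothelial CPM showed no such gap, at 0.176 to 0.252 over the 6 baseline libraries and 0.165 to 0.285 over the 17 later ones. Nor did it over both genotypes without Mcam, which endothelium shares (0.148 to 0.220 and 0.1003 to 0.231). Within S7fl/fl, however, the ratio without Mcam was 0.166 to 0.179 at baseline and lower at day 3, at 0.109 to 0.155, without overlap. It overlapped baseline in S7fl/fl at day 7 (0.125 to 0.190). In MyS7KO the baseline range of 0.148 to 0.220 overlapped those of day 3 (0.1003 to 0.181) and day 7 (0.155 to 0.231). The FPKM ratio of Rgs5 alone to Cdh5 showed a gap over both genotypes, at 1.03 to 1.60 at baseline and 0.383 to 0.948 later. Within the endothelial members, the FPKM ratio of Aqp1 to Cdh5 was 1.87 to 2.57 at baseline and 0.714 to 1.31 later, again without overlap. The ratio of Mcam to Cdh5 lay higher after infarction, going from 0.391 to 0.515 at baseline to 0.653 to 0.884 at day 3, and was 0.494 to 0.728 at day 7. The ratio of Pecam1 to Cdh5 overlapped between baseline (0.657 to 0.787) and day 3 (0.642 to 0.915), and at day 7 was 0.647 to 0.686 in S7fl/fl and 0.563 to 0.617 in MyS7KO, the latter below all baseline libraries. These ratios were computed within a library and so do not depend on scaling between libraries. They were not tested.

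**Figure D4:**
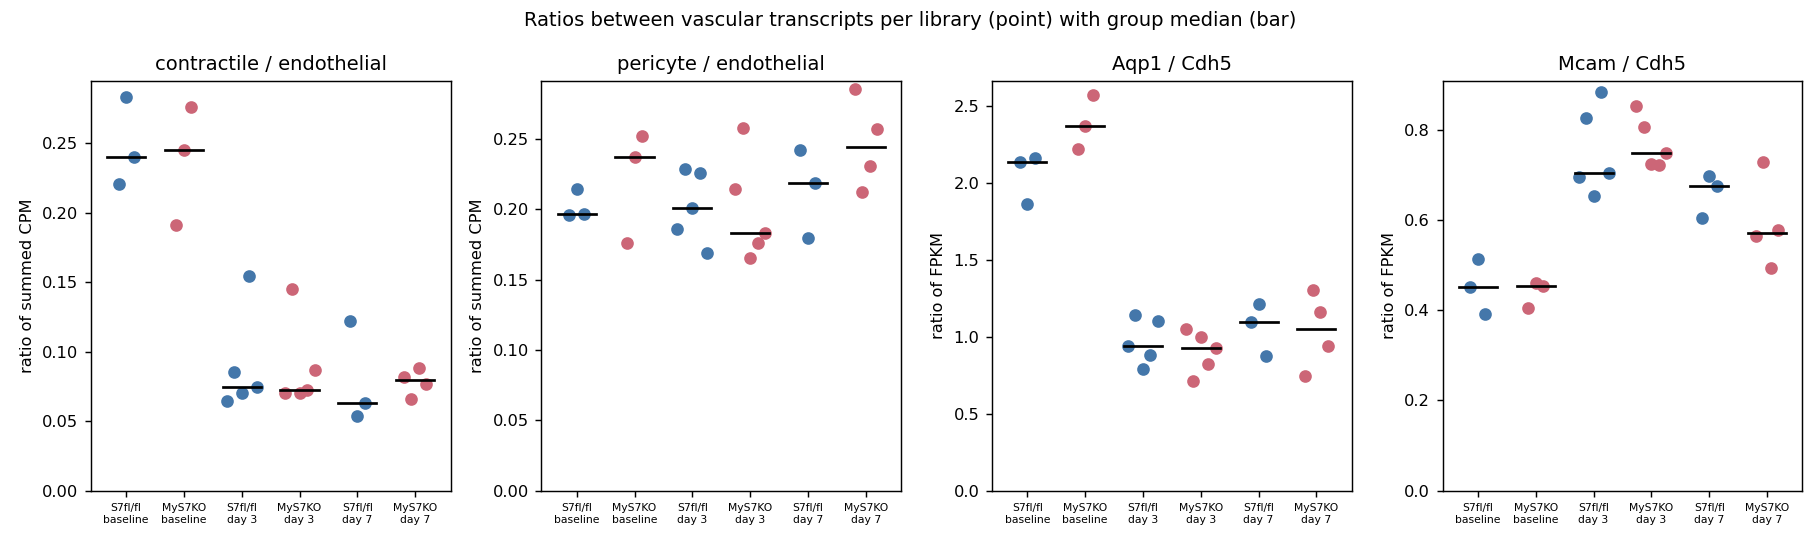
Ratios within each library (point) with the group median (bar): summed CPM of contractile or pericyte over endothelial members, and FPKM of Aqp1 or Mcam over Cdh5, with axes starting at 0. After infarction the contractile ratio is 0.154 or less and the Aqp1 ratio 1.31 or less, the pericyte ratio overlaps at all times, and the Mcam ratio is higher at day 3.

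Between day 3 and day 7 few members moved. In S7fl/fl, 1 of 31 rose, Cspg4 (log2 0.59 ± 0.20, adjusted p = 0.0346), where 11.5% of all genes were called higher, and none fell, where 10.1% were called lower. Cspg4 was also the only member whose day 7 libraries all lay above those of day 3, as 13.1% of genes did. At an unadjusted p under 0.05 edgeR found 2 members, beside 5522 of all genes, DESeq2 called 1 and limma-voom 0. The Cspg4 call was lost with limma-voom, in the fits on FPKM and without S7fl/fl day 3 replicate 2, 3 or 4 or day 7 replicate 2 or 4. In MyS7KO, 3 of 31 rose, where 20.5% of all genes did, and none fell, where 19.1% did: Cspg4 (1.14 ± 0.18, adjusted p = 2.54e-05), Pdgfrb (0.98 ± 0.35, adjusted p = 0.0309) and Tagln (0.80 ± 0.29, adjusted p = 0.0301). All 3 are mural, and for Cspg4 and Tagln the days did not overlap, as was so for 14.7% of genes in this direction. None of the 18 endothelial members passed in edgeR in either genotype, with median log2 differences of -0.65 in S7fl/fl and 0.17 in MyS7KO. Without MyS7KO day 7 replicate 3 the count was 8, adding Rgs5, Kcnj8, Des, Vtn and Cldn5. Without day 3 replicate 3 or 5 or day 7 replicate 1 or 4 it was 1, and only Cspg4 passed there. The call of Tagln was also lost with DESeq2 and limma-voom, and that of Pdgfrb without day 3 replicate 4. Fibroblasts share Pdgfrb, and 12 of their 14 markers rose between these days in MyS7KO and 1, Fn1, fell, with a median log2 change of 2.16. Without Fn1 the markers summed to 1006 to 1746 CPM at day 3 and 2247 to 5688 CPM at day 7, and with it to 3874 to 7867 and 4864 to 8224 CPM. Of these markers 3 were under 1 FPKM on average at day 3 and none at day 7, and their part in the Pdgfrb result was not tested.

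The genotypes were then compared at each time. No member was called at any time with edgeR, DESeq2 or limma-voom, while 2, 2 and 3 of the 16545 genes were called by edgeR at baseline, day 3 and day 7 (0.0121, 0.0121 and 0.0181%). At an unadjusted p under 0.05 there were 0, 0 and 13 members, beside 375, 594 and 2173 of all genes. The median log2 difference, MyS7KO minus S7fl/fl, was -0.20 over endothelial and -0.28 over mural members at baseline, 0.19 and 0.13 at day 3, and 0.98 and 1.15 at day 7, beside -0.03 at baseline and -0.01 at day 7 over all genes tested. At day 7, 30 of 31 members had a positive difference and Tagln was near 0 (-0.02). Signs were nearly as one-sided at the other times, with 29 of 31 negative at baseline and 29 of 31 positive at day 3. Members varied together between libraries, so these counts do not rest on independent genes. The adjusted p ran from 0.232 (Cspg4) to 0.989 (Tagln).

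The day 7 intervals were wide. That of Cdh5 was 0.04 to 2.11 on the log2 scale, that of Myh11 -0.25 to 2.90 and that of Cspg4 0.36 to 1.23, unadjusted 95% intervals. Cspg4 was the only member with no overlap of the genotypes at day 7, where 3.27% of all genes were higher in MyS7KO without overlap. Its levels were 18.7, 15.5, 23.1 and 18.8 CPM in MyS7KO and 13.2, 9.89 and 9.91 CPM in S7fl/fl, and the difference was 0.79 ± 0.21 (adjusted p = 0.232). Leaving out MyS7KO replicate 3, the library with the lowest level of 30 members in its group, the other MyS7KO libraries were above all S7fl/fl libraries for 21 of 31 members, where 9.19% of all genes were. That library was chosen after its values were seen. No member was called in that fit either, nor in any other that left out 1 library. The baseline median over all 31 members depended on 1 library: it was -0.22 with all libraries and 0.05 without MyS7KO replicate 3. At day 3 all 31 members overlapped, where 0.278% of genes were higher and 0.284% lower without overlap. At baseline Tagln alone showed no overlap, lower in MyS7KO (-0.56 ± 0.30, adjusted p = 0.999), where 3.43% of genes did.

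**Figure D5:**
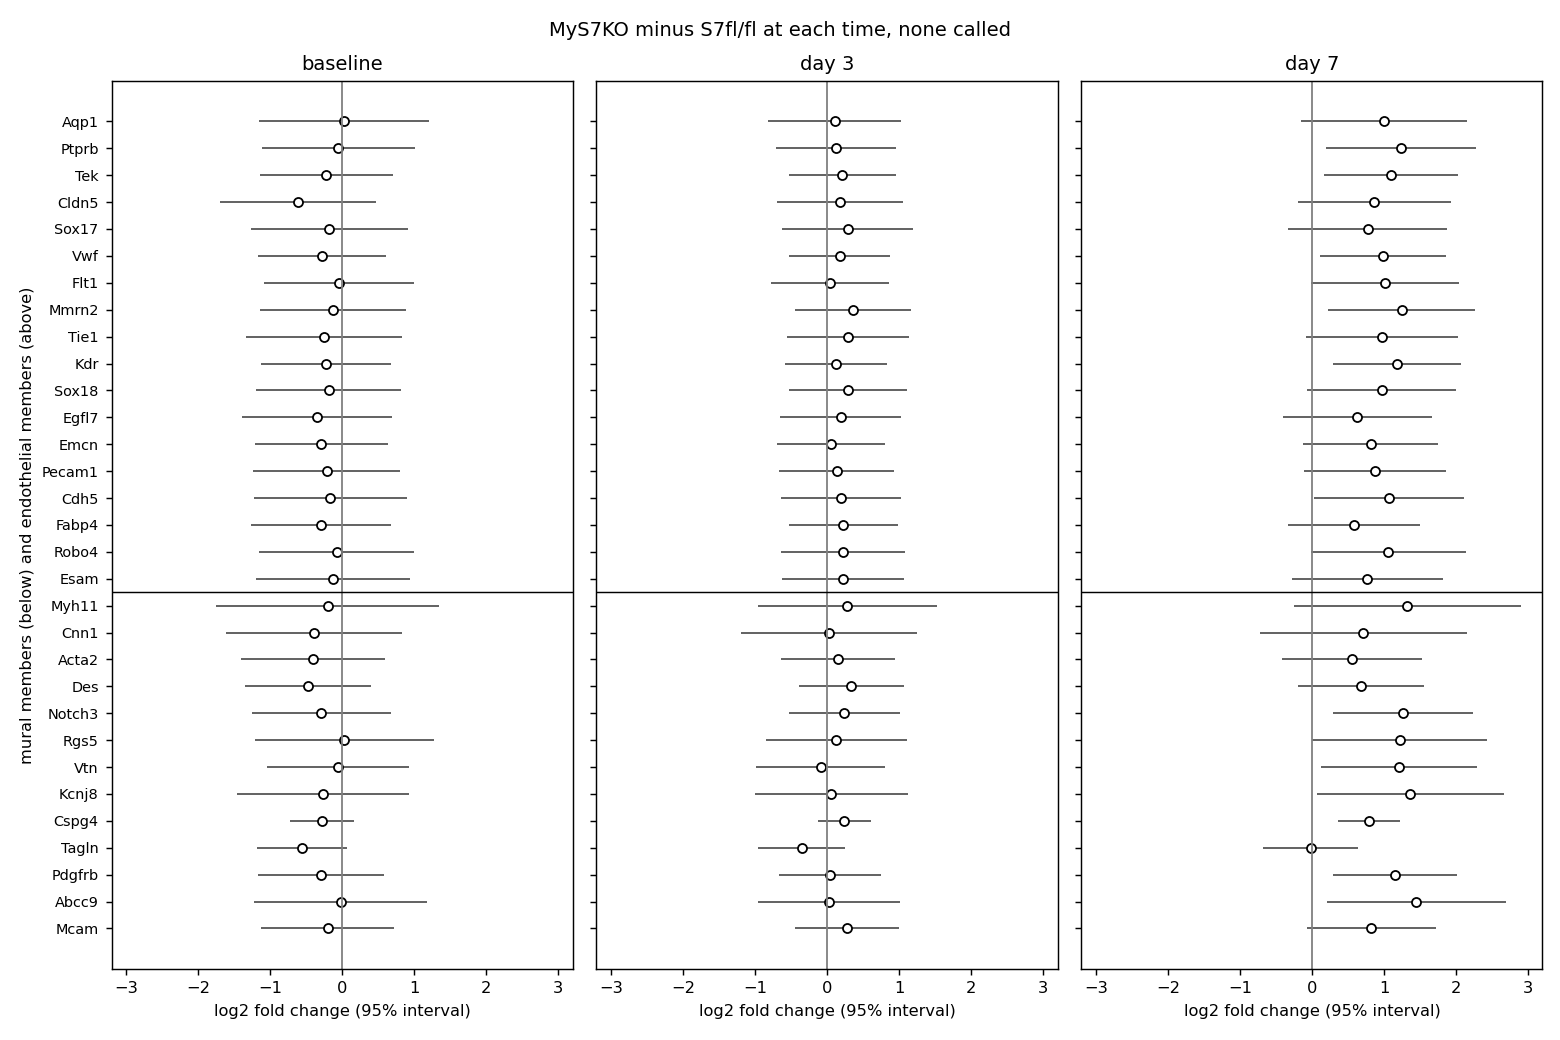
MyS7KO minus S7fl/fl log2 fold change (point) with its unadjusted 95% interval (line) for each member at baseline, day 3 and day 7, none called after adjustment. Medians lie near 0 at baseline and day 3, and at day 7 all points but that of Tagln lie right of 0 with intervals up to about 3 units wide.

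The change of the genotype difference with time was tested directly. No member, and no gene of the 16545 (0%), was called by edgeR for any of the 3 pairs of times, and limma-voom called no member either. For day 7 against baseline, all 31 members had a positive interaction with a median of 1.16 on the log2 scale (0.54 to 1.63, lowest adjusted p 0.877), and 6 had an unadjusted p under 0.05, as had 862 of all genes. For day 7 against day 3 the median was 0.81, with 1 member and 1726 of all genes under 0.05 unadjusted, and for day 3 against baseline 0.42, with 0 members and 741 genes. DESeq2 called 3 genes for day 7 against baseline, none a member. These interactions share libraries with the comparisons above.

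In some groups 1 library was highest or lowest for nearly all members. S7fl/fl day 7 replicate 2 was the highest of its group for 31 of 31 members and MyS7KO baseline replicate 3 the lowest for 31. In MyS7KO at day 7, replicate 4 was highest and replicate 3 lowest for 30 members each. At day 3 no library held such a place: the one most often highest was so for 19 members in S7fl/fl and 20 in MyS7KO, and the one most often lowest for 20 and 14. The S7fl/fl baseline libraries 2 and 3 were highest for 15 and 16 members, and replicate 1 was lowest for 29. The fold between MyS7KO day 7 replicates 4 and 3 ran from 1.49 for Cspg4 to 37.0 for Myh11, with a median of 6.89. For Tagln it was 1.54, so that Cspg4 and Tagln differed least between these libraries. After removal of group means, the pairwise Pearson r of log2 CPM over the 23 libraries had a median of 0.94 among endothelial members (0.73 to 0.98, 153 pairs), 0.80 among mural members (78 pairs) and 0.80 between the 2 sets (234 pairs). These correlations are descriptions over libraries that share groups, depth and processing. The mural member closest to Cdh5 was Mcam (r = 0.98), and Tagln had a median r of only 0.29 with the endothelial members.

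Transcripts of some other cells moved with the vascular ones. The summed endothelial level had an r of 0.92 with the mural sum, 0.90 with 6 mesothelial markers, 0.87 with 13 cardiomyocyte markers and 0.72 with 7 erythroid markers, again on deviations from group means over 23 libraries. With 14 fibroblast markers r was 0.30, and 0.72 without Fn1, which made up most of that sum at day 3. It was -0.33 with 7 lymphatic markers, -0.52 with 12 macrophage markers, 0.27 with 10 platelet markers and 0.04 with 9 neutrophil markers. In MyS7KO at day 7 the cardiomyocyte sum was 18.5 CPM in replicate 3 and 84.2 CPM in replicate 4, where the endothelial sum was 358 and 2274 CPM. Their part in the differences between libraries was not tested. The cardiomyocyte sum was 87.4 to 139.7 CPM over the baseline libraries and 14.8 to 39.1 CPM over those of day 3. The macrophage sum was 13725 to 18971 CPM at baseline and 16179.9 to 20592 CPM at day 3. At day 7 the cardiomyocyte sum was 20.4 to 67.7 CPM in S7fl/fl and 18.5 to 84.2 CPM in MyS7KO. The macrophage sum was then 26031 to 28639 CPM in S7fl/fl and 17418 to 22660 CPM in MyS7KO, without overlap of the genotypes. Platelets share Pecam1 and Vwf, and 8 of the 10 platelet markers were under 1 FPKM on average in each baseline group, with sums of 19.8 to 25.5 CPM over the baseline libraries. At day 3 the platelet markers summed to 60.3 to 138 CPM in S7fl/fl and 42.7 to 63.4 CPM in MyS7KO. Of the 10, 8 were under 1 FPKM on average in each day 3 group too. Of the 8 tested, 1 was called higher and 3 lower than baseline at day 3 in each genotype. Of all genes, 34.1% were called lower in S7fl/fl and 35.2% in MyS7KO. The median log2 change of the platelet markers was 0.004 in S7fl/fl and -0.49 in MyS7KO. At day 7 the sums were 25.1 to 75.2 and 16.8 to 28.1 CPM. Their part in the Pecam1 and Vwf results was not tested. Of 7 lymphatic markers, Ccl21a was at 0 in all libraries and Prox1, which defines lymphatic endothelium, was under 1 FPKM in every group. Lyve1 and Pdpn of that list are also known in macrophages.

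The genes outside the member list that followed it most closely were found among 13349 genes by r of deviations from group means. For the endothelial sum these were Adgrl4 (0.99), Jcad, Shank3, Dysf, Cnn3, Ptprk, Arhgef15 and Tbx3 (0.98). For the mural sum they included Filip1 (0.98), Mylk (0.97), Bcam (0.97), Ptp4a3, Ehd2, Tspan12 and Adamts1 (0.95). Adgrl4 and Shank3 stand in the list of other endothelial genes and Mylk in that of other mural genes. Their means followed the members: Adgrl4 had 25.6 FPKM at S7fl/fl baseline, 6.30 at day 3 and 3.85 at day 7, and Mylk 15.9, 1.14 and 0.775 FPKM.

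Further endothelial genes behaved mostly as the members did. Of 30, 27 fell and 1 rose at day 3 in S7fl/fl, with a median log2 change of -1.99, and 28 fell at day 7. In MyS7KO, 25 fell and 2 rose at day 3, and 24 fell and 1 rose at day 7. Of all genes, 34.1 and 25.4% were called lower at day 3 and day 7 in S7fl/fl, and 35.2 and 21.8% in MyS7KO. The lowest p-values at day 3 were those of S1pr1, the sphingosine-1-phosphate receptor (-1.18 in S7fl/fl and -1.18 in MyS7KO), Kank3 (-1.91 and -1.60) and Calcrl, the adrenomedullin receptor (-0.97 and -0.92). At day 7 they were Kank3 (-1.79), Cyyr1 (-3.45) and Calcrl (-0.996) in S7fl/fl, and S1pr1 (-0.89), Timp4 (-3.85) and Cd300lg (-2.13) in MyS7KO. The exceptions that rose, named after their values were seen, were Rgcc at day 3 in both genotypes (0.54 and 0.42) and Plvap in MyS7KO at both times (1.48 and 1.57). Plvap, which forms the diaphragms of fenestrated endothelium, went from a mean of 6.10 CPM at MyS7KO baseline to 16.997 CPM at day 3 and 18.1 CPM at day 7. In S7fl/fl at day 7 all 30 of these genes, Plvap among them, had a negative log2 change from baseline, the highest being -0.31.

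Of 23 further mural genes, 22 fell at day 3 in each genotype, with medians of -2.89 in S7fl/fl and -2.45 in MyS7KO. At day 7, 22 were lower and 1 higher in S7fl/fl, and 16 lower and 1 higher in MyS7KO. The shares of all genes called lower are those given above for the further endothelial genes. Gucy1a1 and Gucy1b1, the subunits of the nitric oxide receptor of smooth muscle and pericytes, were lowest in p at day 3 (-3.90 and -3.25 in S7fl/fl, -3.24 and -3.04 in MyS7KO). The gene called higher than baseline at day 7 was P2ry14, a receptor for UDP-glucose (0.93 in S7fl/fl and 1.41 in MyS7KO). From day 3 to day 7, 9 of the 23 rose in MyS7KO and 2 in S7fl/fl, where 20.5 and 11.5% of all genes rose. None fell, where 19.1 and 10.1% of all genes did. In MyS7KO these included P2ry14 (1.33), Gucy1a1 (1.77) and Gucy1b1 (1.33), and in S7fl/fl they were P2ry14 (1.26) and Tbx18 (1.43).

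Ligands that act on these vessels moved in both directions. Of 19 angiogenic ligands, 3 rose and 10 fell at day 3 in S7fl/fl, where 34.1% of all genes fell, with a median log2 change of -1.49. In MyS7KO, 5 rose and 10 fell, where 35.2% of genes fell, with a median of -1.12. Vegfa, the ligand of Kdr and Flt1, rose from a mean of 56.0 to 613 CPM at day 3 and 455 CPM at day 7 in S7fl/fl (3.45 and 3.02), and from 50.1 to 545 and 382 CPM in MyS7KO (3.44 and 2.93). Pdgfb, the ligand of Pdgfrb, fell at day 3 (-1.49 in S7fl/fl and -1.12 in MyS7KO) and rose from day 3 to day 7 (1.54 and 1.36). Edn1, endothelin of endothelial cells, fell with the members (-2.34 and -2.22 at day 3). At day 7, Hgf and Pdgfa were above baseline in both genotypes (2.09 and 1.21 in S7fl/fl, 1.88 and 1.16 in MyS7KO). From day 3 to day 7, Angpt2, the antagonist of Tie2 made by endothelium, fell in S7fl/fl (-1.32) and Jag1, a Notch ligand, in MyS7KO (-0.71). No gene of these 3 further lists was called between genotypes at any time by edgeR.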

How the data were processed

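Per the labels' protocols, polyadenylated RNA was made into NEBNext Ultra libraries and sequenced in 150-base pairs. The authors deposited raw read counts and FPKM values per gene in separate tables. TopHat2 2.0.9, Cufflinks 2.1.1, HTSeq 0.6.1 and the mouse build GRCm38 stand in the submitters' processing notes. Counts of all 23 libraries, 15479402 to 23884938 per library, were fitted with edgeR 4.0.16 (quasi-likelihood, robust, trimmed mean of M-values, filterByExpr, 1 coefficient per group, R 4.3.3). Benjamini-Hochberg adjustment ran over the 16545 genes tested, at a threshold of 0.05. Alternatives were DESeq2 1.42.0, limma-voom and limma 3.58.1 on log2 of the deposited FPKM values (pseudocounts 1 and 0.1), another scaling, no filter, only the groups compared, a replicate block and each library left out. Replicate numbers were not treated as pairs in the main fit. The fit was tested on simulated data. All 31 members had to be described. Of the further lists, called genes with the 3 lowest p-values per comparison were named, and the 8 genes most like each summed level, of which 1 is not reported here. Members and lists were chosen with earlier results of these data known. Sums without Fn1 or Mcam were added after the data were seen.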

Additional observations from a re-analysis of the deposited data

Results flagged for a closer look

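In groups of 4 and 5 libraries, 3 of 99 series of member values held a library set apart from the others of its group by more than Dixon's 95% critical value, which chance does in about 1 of 20 groups. For Acta2, S7fl/fl day 3 replicate 3 was lowest at 28.3 CPM, beside 45.1 CPM in the nearest library. MyS7KO day 3 replicate 1 was highest for Kcnj8 at 4.92 CPM, beside 2.22 CPM, and for Abcc9 at 18.3 CPM, beside 8.27 CPM.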

How the results depend on the processing

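Among 1972 values of called members under alternatives, 1884 kept direction and call, 88 lost the call, 51 of them in MyS7KO at day 7 against baseline, and none reversed. Counts of calls stayed within 1.5 times for 205 and left that range for 18. In S7fl/fl from day 3 to day 7, 1 call became 0 with limma-voom and in the 3 fits on FPKM, and 0 to 1 with a library left out. In MyS7KO at day 7 against baseline, 25 calls became 11 with only the groups compared and 18 to 30 with a library left out. In MyS7KO from day 3 to day 7, 3 calls became 1 with no filter, with only the groups compared and on FPKM with no filter, and 1 to 8 with a library left out. The log2 change of the mural sum at day 3 in S7fl/fl was -2.81, -2.16 with pericyte members alone and -3.71 with contractile members alone. At day 7 it was -3.25, and -4.19 with contractile members. In MyS7KO at day 3 it was -2.42, -1.89 with pericyte and -3.202 with contractile members. Same-numbered samples had deviations correlated at -0.37 to 0.44 over 10 pairs, 6 of them over 0.1. Samples with different numbers were not set beside them, so these values cannot decide whether the numbers are pairs. A replicate block gave 18 calls in MyS7KO at day 7 against baseline, with Cdh5 not called (adjusted p = 0.129), and left every other count of member calls as it was. The causes were not tested.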
